A study of Sus scrofa with 6 samples.

Results

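The genes described here are the cytokines, chemokines, their receptors, the innate pattern receptors and the NF-κB and TRAF proteins of 2 porcine intestinal epithelial cell lines, IPEC-J2 and IPEC-1. They were chosen by symbol alone: every gene on the array whose symbol starts with IL and a digit, CXCL, CXCR, CCL or CCR and a digit, TNF, TLR, CSF, NFKB, TRAF or MYD88, or is NOD1 or NOD2. This gave 87 of the 6765 genes with a symbol of their own, measured by 109 probe sets. No signal entered this rule, but it was written with earlier results of these data known. Neither NOD1 nor NOD2 was among the symbols. Both lines are spontaneously immortalised, derive from the small intestine of newborn piglets and were grown without any treatment or infection as polarised layers on membranes, in medium with 5% fetal calf serum and 5 ng/mL epidermal growth factor at 39 °C. The sample labels give 7 days on the membranes, whereas the methods give a longer time. RNA of 3 IPEC-J2 cultures and 3 IPEC-1 cultures was hybridised to 6 Affymetrix Porcine Genome Arrays, 1 culture per array. As each line is a single line, a difference between them cannot be told apart from a difference between the piglets, the gut segments or the passages they come from. In the culture description of the labels both lines carry 1 cell bank number, but the methods list a separate number for each.

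Enterocytes sense microbes through pattern receptors such as the Toll-like receptors, which signal through the adaptor MYD88 and TRAF proteins to free NF-κB from its inhibitors. NF-κB then switches on chemokines that call in neutrophils and macrophages, cytokines such as IL-6, and its own inhibitor. Receptors for tumour necrosis factor (TNF) and for interleukin-1 and interleukin-17 lead into the same route, while most other interleukin receptors signal through JAK kinases and STAT proteins.

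Signals are given on the log2 scale. The lowest signal of every array was exactly 4.00, which is called the floor; a gene at the floor has no measured level, and such values carry no order. The signals of all probe sets of a gene were averaged, so a probe set at the floor pulls the mean of its gene down. Each level is a statement about 1 gene between the lines and is not set against another gene. Differences are IPEC-J2 minus IPEC-1, tested with limma across all 6765 genes, and a gene is called different where the p-value adjusted over all these genes is under 0.05. With 3 arrays per line the smallest p of an exact permutation test is 0.1, so none was used.

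More than 1 in 2 of these genes had no measurable signal in either line. Of the 87 genes, 49 stood at the floor on every IPEC-J2 array (56.3%) and 53 on every IPEC-1 array (60.9%). On all 6 arrays it was 47 genes (54.0%). Among all 6765 genes the shares were 22.5% for IPEC-J2, 23.0% for IPEC-1 and 18.5% for all 6 arrays. Above the floor on every array were 23 of the 87 genes, and 17 were above it on some arrays only. No gene stood at the floor throughout 1 line and above it on every array of the other. At the floor in IPEC-J2 alone were NFKBIL1 and TRAF6, and at the floor in IPEC-1 alone were CCR2, IL2RA, IL12A, IL34, IL5 and TNFSF4.

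**Figure D1:**
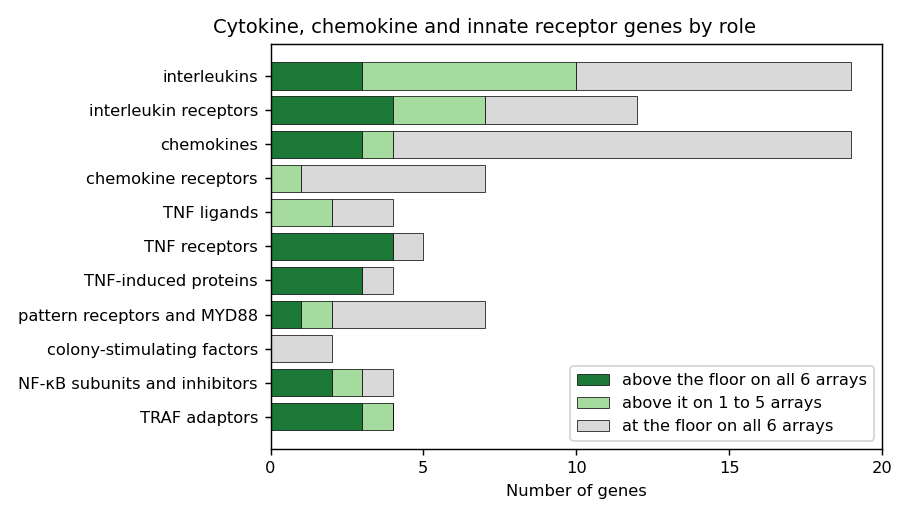
Number of genes (horizontal axis) in each of 11 roles, split by detection over the 3 IPEC-J2 and 3 IPEC-1 arrays. Chemokines and chemokine receptors are mostly at the floor (15 of 19 and 6 of 7 genes), while 4 of 5 TNF receptors are above it on all 6 arrays.

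The 17 genes with a signal on some arrays only were not spread evenly over the arrays. Of them, 5, 11 and 12 were above the floor on the IPEC-J2 arrays 1, 2 and 3, against 2, 3 and 9 on the IPEC-1 arrays 1, 2 and 3. The 2 groups overlap, because IPEC-1 array 3 has more such genes than IPEC-J2 array 1. Over all probe sets, IPEC-J2 array 1 had the largest share at the floor (48.3%, against 40.5 to 44.5% on the other arrays) and the lowest 75th percentile (8.31, against 8.51 to 8.56). Without this array 8 of the 87 genes were called, where IL4R and TNFRSF12A were lost and IL12A and IL5 gained. Where a probe set was above the floor on 1 array only of a line, its signal had a 95th percentile of 7.78 in IPEC-J2 and 7.85 in IPEC-1. Signals up to about that level thus occurred on single arrays without support from the other arrays of the line. They were rare: where the other arrays of the line were at the floor, 5.8% of values in IPEC-J2 and 5.7% in IPEC-1 were above it.

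The lines were checked against markers of other cells. Of 17 leukocyte markers, 11 were at the floor on all 6 arrays, among them PTPRC, CD2, CD3D, CD4, ITGAM, ITGB2, SPI1 and TYROBP. Their summed linear signal lay between 1694 and 1908 on the IPEC-J2 arrays and between 1448 and 1826 on the IPEC-1 arrays, and most of it came from AIF1. CD3E, a subunit of the T cell receptor complex, was at the floor in IPEC-J2 and between 5.60 and 6.13 in IPEC-1. Of 10 mesenchymal markers, 6 were at the floor on all arrays, but the summed linear signal was 875 to 1092 in IPEC-J2, against 358 to 424 in IPEC-1. THY1, a surface protein of fibroblasts, lay at 9.38, 9.82 and 9.46 in IPEC-J2, with every IPEC-1 array at the floor, whereas POSTN (periostin) was lower in IPEC-J2, with 4.00, 4.00 and 4.52, against 7.65, 7.07 and 7.64 in IPEC-1 (limma, adjusted p = 0.00262). Of 8 endothelial markers, PECAM1 alone was above the floor, with 4.00, 4.87 and 4.00 in IPEC-J2, against 5.88, 5.65 and 5.71 in IPEC-1. The summed linear signal of the 14 epithelial markers, all above the floor somewhere, was 58537 to 66059 in IPEC-J2, against 41187 to 42931 in IPEC-1. This sum does not describe the markers one by one: 6 had a positive and 8 a negative difference. Among the higher ones, VIL1 had means of 13.89 in IPEC-J2 and 6.99 in IPEC-1, and EZR of 13.26 and 11.82. KRT19 was lower in IPEC-J2, with a difference of -0.80 (limma, adjusted p = 0.00223). The part of these markers in the differences below was not tested. In bulk RNA, fewer cells with a transcript and less transcript per cell cannot be told apart.

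Of the 87 genes, 5 were significantly higher in IPEC-J2, namely TNFRSF1B, TRAF3IP2, NFKBIA, IL4R and TNFRSF12A, and 3 were significantly lower, namely IL6, IL11RA and IL10RB. Among all genes tested, 9.46% were higher and 11.2% lower. Taking only genes above the floor somewhere, 8 of 40 were called (20.0%), against 25.4% of all such genes. The arrays of both lines did not overlap for 15 of the 40 genes (37.5%), 10 of them higher and 5 lower in IPEC-J2, against 47.5% of all genes above the floor somewhere. Both shares lie below the background, and neither is a result about these genes. The median difference of the 40 genes was 0.34, against -0.05 over all 5513 genes above the floor somewhere. It was positive for 26 and negative for 14 of the 40. This median includes the 17 genes above the floor on some arrays only, whose differences depend on which arrays fall to the floor. Among the 23 genes above the floor on every array, the middle difference was 0.05 (IL18BP).

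**Figure D2:**
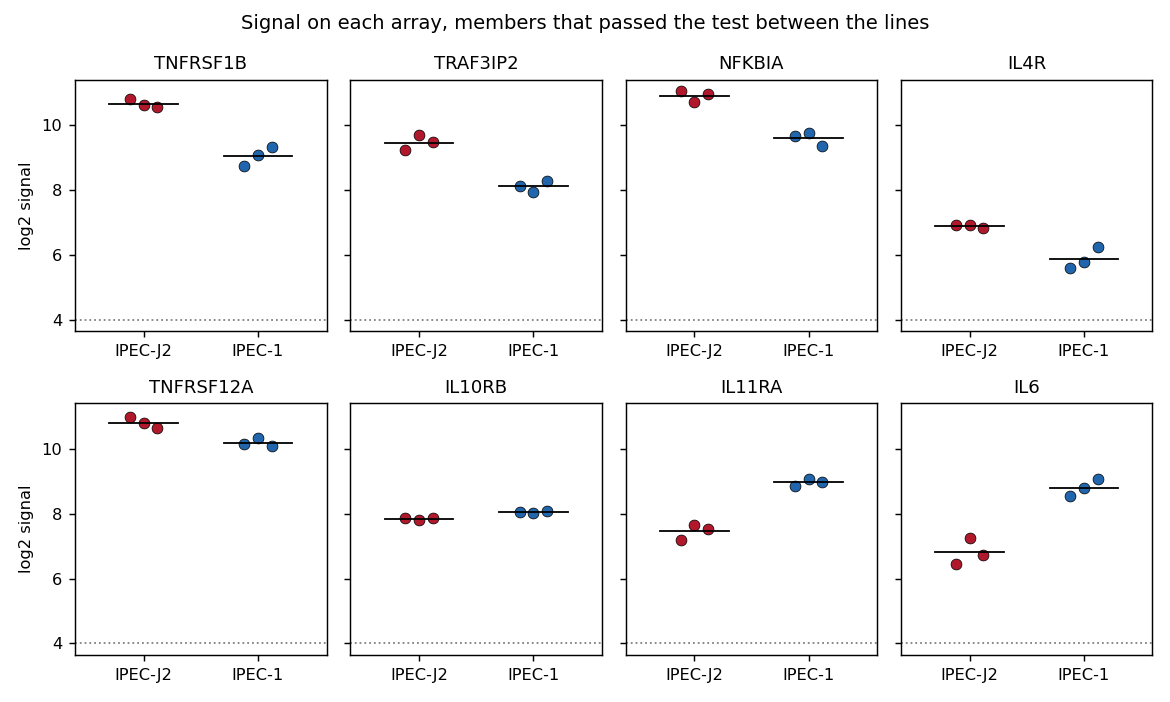
log2 signal on each array (points) and mean of 3 arrays (bar) for the 8 genes that passed the test, IPEC-J2 in red left of IPEC-1 in blue; the dotted line is the floor of 4.00. In all 8 panels the points of the lines do not overlap; IL10RB differs by only 0.20.

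Many ligands of the interleukin family had no measured level. Of 19 genes, 9 were at the floor on all arrays: IL2, IL4, IL7, IL12B, IL13, IL16, IL17A, IL17B and IL21, most of which are products of lymphocytes or antigen-presenting cells. The only one that passed the test was IL6, the cytokine that drives the acute phase response in the liver and is also made by epithelium. IL6 had log2 signals of 6.44, 7.26 and 6.74 on the IPEC-J2 arrays, against 8.54, 8.80 and 9.05 on the IPEC-1 arrays. Every IPEC-J2 array was thus below every IPEC-1 array. The difference of -1.98 (SE 0.268) is a 3.95-fold lower signal in IPEC-J2 (limma, adjusted p = 0.0124). It was -1.80 and -2.36 in the 2 pairs of arrays, 1 of each line, that share a note in the labels. The IPEC-J2 signals of IL6 lie within the range of unsupported single signals, and with all signals under 7.85 raised to that level the difference was -0.95 (adjusted p = 0.0190). Without IPEC-J2 array 3 it was -1.95 (limma, adjusted p = 0.0579).

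IL1A, an alarmin stored in epithelial cells and released on damage, showed the opposite order but did not pass the test. Its mean signals were 7.59, 7.31 and 7.56 on the IPEC-J2 arrays, against 6.90, 5.72 and 5.71 on the IPEC-1 arrays, without overlap. The difference was 1.38 with a 95% interval of 0.34 to 2.41 (limma, adjusted p = 0.0791). Without IPEC-1 array 1 it passed (adjusted p = 0.00687). IL1A has 2 probe sets. The one that was above the floor on every array gave 8.19, 8.0 and 8.16 in IPEC-J2, against 7.62, 7.43 and 7.42 in IPEC-1, a difference of 0.63 (adjusted p over all probe sets 0.0189). The other was at the floor on 2 IPEC-1 arrays. IL1B, the secreted partner of IL1A that is cut by caspase-1, had 1 of 2 probe sets above the floor and a difference of -0.13 (95% interval -1.83 to 1.58).

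IL18BP, the secreted protein that binds and blocks interleukin-18, had a steady signal in both lines. It gave 7.63, 7.93 and 8.04 on the IPEC-J2 arrays, against 7.57, 8.07 and 7.81 on the IPEC-1 arrays, a difference of 0.05 with a 95% interval of -0.43 to 0.53. Another 4 interleukins are named after their values were seen, because they were detected on more arrays of IPEC-J2. IL15, which sustains intraepithelial lymphocytes, was at 6.66, 6.40 and 6.68 in IPEC-J2, against 4.00, 4.00 and 6.40 in IPEC-1. IL18, an epithelial cytokine of the interleukin-1 family, was at 6.02, 6.51 and 6.52 in IPEC-J2, against 5.58, 4.00 and 6.23 in IPEC-1.

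IL12A and IL5 shared another pattern, with a signal on IPEC-J2 arrays 2 and 3 and the floor everywhere else. IL12A, a subunit of interleukin-12, reached 7.12 and 6.86 there, and IL5, the growth factor of eosinophils, reached 5.71 and 5.78. None of these 4 genes passed the test (adjusted p = 0.205 for IL15, 0.355 for IL18 and 0.243 for both IL12A and IL5). Without IPEC-J2 array 1, the array with most probe sets at the floor, IL12A and IL5 passed it, and without IPEC-1 array 3 IL15 did. All these signals lie within the range of unsupported single signals, and with signals under 7.85 raised to it the differences of the 4 genes were 0.00. IL34 was above the floor on IPEC-J2 array 1 alone (6.25), and IL10 on 1 array of each line (5.59 and 5.55).

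Interleukin receptors held 3 of the 8 called genes, or 42.9% of the 7 receptors above the floor somewhere, against 25.4% of all such genes. The roles were set with earlier results of these data known, so the share is not a result about this role. IL4R, the receptor chain for interleukin-4 and interleukin-13, had mean signals of 6.92, 6.92 and 6.82 in IPEC-J2, against 5.59, 5.78 and 6.23 in IPEC-1. The groups did not overlap, and the difference was 1.02 (SE 0.183; limma, adjusted p = 0.0257), or 2.02-fold. Of its 2 probe sets, 1 was at the floor on all arrays, which lowers the difference of the mean. The other gave 9.83, 9.83 and 9.64 in IPEC-J2, against 7.18, 7.56 and 8.46 in IPEC-1, a difference of 2.03 (adjusted p over all probe sets 0.0401). The call was lost on leaving out any single array except IPEC-1 array 3 (adjusted p between 0.0552 and 0.0871), with differences of 0.88 to 1.05. In the pairs of arrays with a shared note the difference was 1.23 and 1.14, and with the notes as a block the adjusted p was 0.0740.

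The partners of IL4R on the array had no measured level. IL4 and IL13, its ligands, and IL13RA1 and IL2RG, the chains that complete its receptors, were at the floor on all 6 arrays.

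IL11RA, the receptor chain that binds interleukin-11, went the other way. Its signals were 7.19, 7.64 and 7.54 in IPEC-J2, against 8.86, 9.07 and 8.98 in IPEC-1. All IPEC-J2 arrays lay below all IPEC-1 arrays. The difference of -1.51 (SE 0.142) is 2.85-fold lower in IPEC-J2 (limma, adjusted p = 0.00514). In the pairs of arrays with a shared note it was -1.32 and -1.88, and with the notes as a block the adjusted p was 0.0537. With signals under 7.85 raised to it the difference was -1.12 (adjusted p = 0.00195). IL6R, the receptor chain that binds interleukin-6 in the same family, was at the floor on all arrays.

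IL10RB is a chain shared by the receptors for interleukin-10, interleukin-22 and the type III interferons. It gave 7.87, 7.81 and 7.85 in IPEC-J2, against 8.05, 8.02 and 8.07 in IPEC-1, the narrowest spread of the called genes. The difference of -0.20 (SE 0.0221) is only 1.15-fold lower (limma, adjusted p = 0.00730), and the call depends on the scaling: the adjusted p was 0.488 after quantile normalization and 0.403 with arrays centred on their 75th percentile, where the difference was -0.15 in both. With the notes as a block it was 0.0701.

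IL27RA, the receptor of interleukin-27, gave 9.09, 8.98 and 9.35 in IPEC-J2, against 8.42, 8.22 and 8.78 in IPEC-1. The lines did not overlap, but the difference of 0.67 did not pass the test (95% interval 0.16 to 1.17; limma, adjusted p = 0.0797). IL1R1, the signalling receptor of interleukin-1, was above the floor on 2 IPEC-J2 arrays and 1 IPEC-1 array by 1 of its 2 probe sets, at 7.55 and 7.65 in IPEC-J2, against 7.23 in IPEC-1. IL12RB2, a chain of the interleukin-12 receptor, was above it on the same 3 arrays at 5.26 and 5.56 in IPEC-J2, against 5.27 in IPEC-1. IL2RA, a chain of the interleukin-2 receptor, was above it on IPEC-J2 array 3 alone (5.14). IL18R1, IL7R, IL2RG, IL13RA1 and IL6R made up the 5 of 12 receptors at the floor on all arrays.

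**Figure D3:**
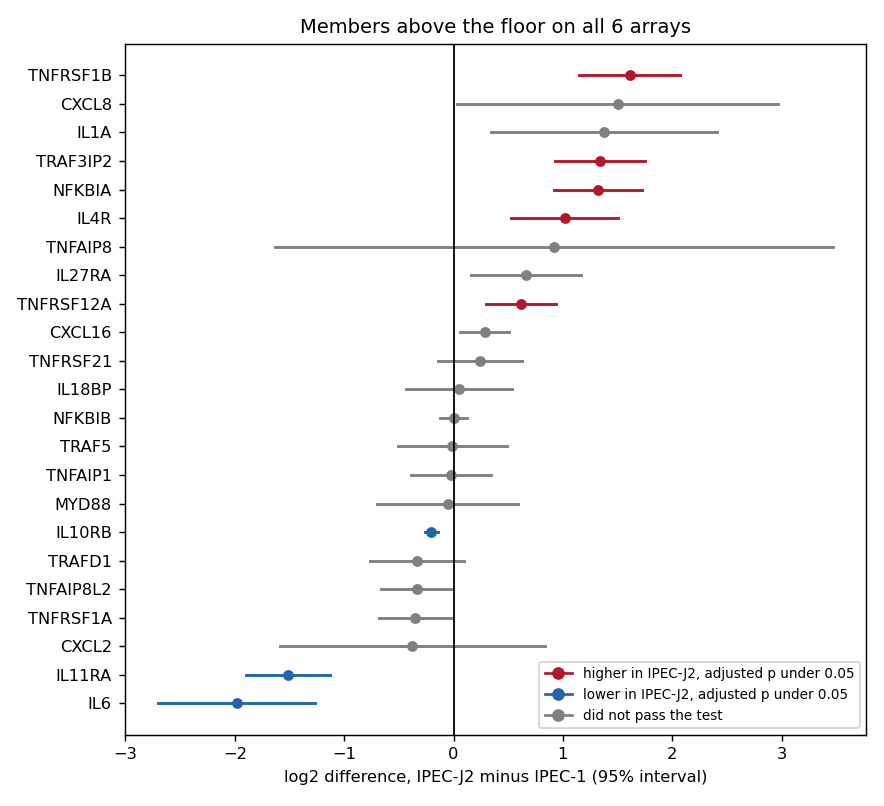
log2 difference of IPEC-J2 minus IPEC-1 (points) with its 95% interval (lines) for the 23 genes above the floor on all 6 arrays, ordered by the difference. TNFRSF1B stands at the upper end (1.61) and IL6 at the lower end (-1.98); 15 intervals in grey belong to genes that did not pass the test.

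Most chemokines had no measured level. Of 19 genes, 15 were at the floor on all 6 arrays. They included CCL2, CCL5 and CCL8, which attract monocytes and T cells, CCL25 and CCL28, known as chemokines of intestinal and mucosal epithelium, and CXCL9, CXCL12, CXCL13 and CXCL14. The others at the floor were CCL3L1, CCL14, CCL19, CCL21, CCL24 and CCL27. None of the 19 was called by limma (2 had an unadjusted p under 0.05, and the t-test of the methods called 0 after adjustment). CXCL16, a membrane-bound chemokine that is shed from epithelium, gave 9.94, 9.96 and 10.03 in IPEC-J2, against 9.55, 9.69 and 9.84 in IPEC-1. The lines did not overlap, and the difference was 0.28 with a 95% interval of 0.06 to 0.51 (limma, adjusted p = 0.0907). Without IPEC-1 array 3 it passed (adjusted p = 0.0466).

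CXCL8 (interleukin-8), the main neutrophil attractant of stimulated epithelium, is added here after its values were seen. It gave 7.74, 7.51 and 7.57 in IPEC-J2, against 7.00, 5.04 and 6.27 in IPEC-1. Every IPEC-J2 array was above every IPEC-1 array, but the IPEC-1 arrays differed widely among themselves (SD 0.991, against 0.119 in IPEC-J2). The difference of 1.50 had a 95% interval of 0.04 to 2.97 (limma, adjusted p = 0.144). CXCL2, another neutrophil attractant, gave 6.98, 6.71 and 7.05 in IPEC-J2, against 6.94, 6.72 and 8.21 in IPEC-1, and its groups overlapped (difference -0.38, 95% interval -1.59 to 0.84). CCL4 was above the floor on 1 array of each line (5.76 in IPEC-J2 and 5.94 in IPEC-1).

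The receptors of these chemokines had no signal to compare. CCR1, CCR3, CCR7, CCR9, CXCR4 and CXCR6 were at the floor on all 6 arrays, and CCR2 was above it on IPEC-J2 array 3 alone (5.04). Thus CXCL16 was measured while its receptor CXCR6 was not, and of the pairs CCL25 with CCR9 and CXCL12 with CXCR4 no partner was measured. The colony-stimulating factors CSF2 and CSF3, which act on granulocytes and macrophages, were at the floor throughout as well. Among the chemokine receptors, colony-stimulating factors and TNF ligands limma called 0 genes, with 0 at an unadjusted p under 0.05 and 0 called by the t-test of the methods.

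In the TNF family, 2 of 4 ligands were at the floor on all arrays, against 1 of 5 receptors. The ligands were TNF itself and TNFSF13. TNFSF10 (TRAIL), which triggers apoptosis, gave 4.74, 5.13 and 5.45 in IPEC-J2, against 4.88, 5.43 and 4.00 in IPEC-1, and the lines overlapped. TNFSF4 was above the floor on IPEC-J2 array 3 alone (6.79).

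TNFRSF1B, the second TNF receptor (TNFR2), had the largest positive difference of the called genes. It gave 10.80, 10.62 and 10.56 in IPEC-J2, against 8.75, 9.08 and 9.32 in IPEC-1, with no overlap. The difference of 1.61 (SE 0.172) is 3.05-fold (limma, adjusted p = 0.00700). It was 1.81 and 1.72 in the pairs with a shared note, and the call was kept on leaving out any single array (adjusted p at most 0.0335). TNFRSF1A, the first TNF receptor (TNFR1) with a death domain, gave 9.93, 10.13 and 9.96 in IPEC-J2, against 10.15, 10.54 and 10.38 in IPEC-1. Here the IPEC-J2 arrays lay just below the IPEC-1 arrays, and the difference of -0.35 did not pass the test (95% interval -0.68 to -0.02; limma, adjusted p = 0.133). The 2 TNF receptors therefore differed in opposite order between the lines, of which only that of TNFRSF1B passed the test; the difference between them was not tested.

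TNFRSF12A (Fn14), the receptor of the TNF relative TWEAK, was also higher in IPEC-J2. Averaged over 2 probe sets it gave 10.98, 10.80 and 10.63 in IPEC-J2, against 10.14, 10.33 and 10.09 in IPEC-1. The difference of 0.62 (SE 0.120) is 1.54-fold (limma, adjusted p = 0.0307). Its probe sets differed by 0.72 and 0.51, each with an adjusted p of 0.0510 to 0.0511 over all probe sets, and the call was lost on leaving out any single array except IPEC-J2 array 3 (adjusted p between 0.0540 and 0.0994). TNFRSF21 (death receptor 6) gave 12.30, 12.76 and 12.49 in IPEC-J2, against 12.14, 12.32 and 12.36 in IPEC-1, with overlap and a difference of 0.24 (95% interval -0.14 to 0.62). TNFRSF17, the plasma cell receptor BCMA, was at the floor on all arrays.

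Of the TNF-induced proteins, TNFAIP6 was at the floor and no gene passed the test (limma; 1 of 4 had an unadjusted p under 0.05, and the t-test of the methods called 0 after adjustment). TNFAIP1 gave 8.87, 8.58 and 8.59 in IPEC-J2, against 8.56, 8.91 and 8.63 in IPEC-1, a difference of -0.02 with a 95% interval of -0.38 to 0.34. TNFAIP8, an inhibitor of apoptosis, had an uneven second probe set, which was at the floor on 1 IPEC-J2 array and 2 IPEC-1 arrays. Its other probe set gave 8.49, 8.99 and 8.61 in IPEC-J2, against 8.01, 8.23 and 8.42 in IPEC-1, a difference of 0.48 (adjusted p over all probe sets 0.231). TNFAIP8L2, a relative of TNFAIP8 that dampens immune responses in mice, differed by -0.34 (95% interval -0.66 to -0.01; limma, adjusted p = 0.142), with every IPEC-J2 array below every IPEC-1 array. After quantile normalization it passed the test.

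Among the pattern receptors, TLR1, TLR2, TLR6, TLR8 and TLR9 were at the floor on all 6 arrays. TLR4, the receptor for lipopolysaccharide of Gram-negative bacteria, is represented by 5 probe sets, of which 2 were at the floor throughout and another 2 were above it on IPEC-J2 array 2 alone (5.61 and 5.47). The remaining probe set gave 6.00, 7.35 and 6.73 in IPEC-J2, against 4.00, 4.00 and 5.33 in IPEC-1, a difference of 2.25 (adjusted p over all probe sets 0.0888). As a mean of 5, TLR4 gave 4.40, 5.29 and 4.55 in IPEC-J2, against 4.00, 4.00 and 4.27 in IPEC-1. Every IPEC-J2 array was above every IPEC-1 array, and the difference of 0.66 did not pass the test (95% interval -0.08 to 1.39; limma, adjusted p = 0.194), apart from quantile normalization, where the adjusted p was 0.0208. No TLR4 signal reached 7.85, so with signals raised to that level its difference was 0.00. The study itself reported TLR4 as significantly higher in IPEC-J2, both on the arrays and by quantitative PCR, which does not depend on these probe sets. For the arrays its methods give a t-test and name no adjustment. That t-test, unadjusted, did not call TLR4 on the mean signals used here.

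**Figure D4:**
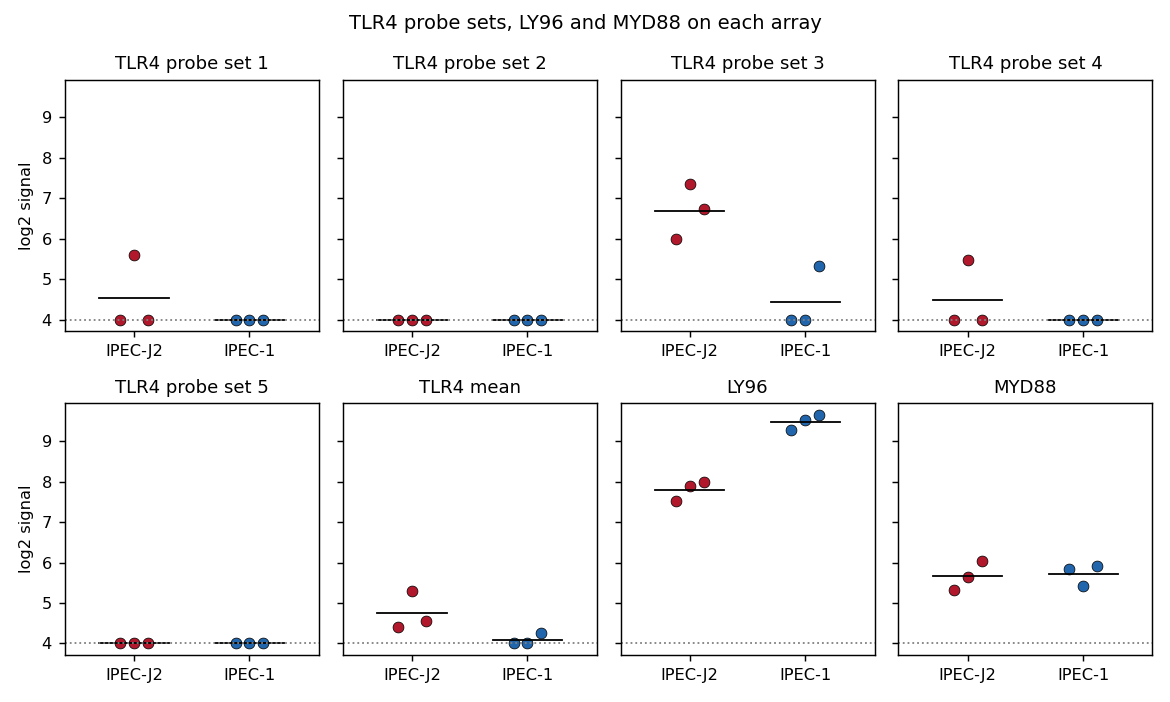
log2 signal on each array (points) and mean (bar) of the 5 probe sets of TLR4, their mean, LY96 and MYD88, IPEC-J2 in red left of IPEC-1 in blue; the dotted line is the floor of 4.00. Probe set 3 carries most of the TLR4 signal, with 3 IPEC-J2 arrays and 1 IPEC-1 array above the floor, while LY96 lies lower in IPEC-J2.

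LY96 (MD-2), the protein that holds lipopolysaccharide in the TLR4 complex, is not part of the symbol rule but was on the list of pathway genes. It gave 7.51, 7.88 and 7.99 in IPEC-J2, against 9.27, 9.52 and 9.65 in IPEC-1, with no overlap. It was 3.22-fold lower in IPEC-J2 (difference -1.69; limma, adjusted p = 0.00651), and with the label notes as a block the adjusted p was 0.0564. CD14, which hands lipopolysaccharide to the complex, was above the floor on IPEC-J2 array 3 alone. MYD88, the adaptor shared by most Toll-like receptors and the interleukin-1 receptors, gave 5.33, 5.65 and 6.04 in IPEC-J2, against 5.84, 5.43 and 5.91 in IPEC-1, and its groups overlapped (difference -0.05, 95% interval -0.70 to 0.59). Of the 7 genes in this role, 0 passed the test in limma, 0 had an unadjusted p under 0.05 and 0 were called by the t-test of the methods.

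Below the receptors, 1 NF-κB inhibitor and 1 TRAF-binding adaptor were higher in IPEC-J2. NFKBIA (IκBα) holds NF-κB in the cytoplasm and is itself switched on by it. It gave 11.04, 10.71 and 10.96 in IPEC-J2, against 9.67, 9.74 and 9.34 in IPEC-1. The lines did not overlap, and the difference of 1.32 (SE 0.151) is 2.50-fold (limma, adjusted p = 0.00833). It was 1.29 and 1.30 in the pairs with a shared note and 1.37 in the remaining pair.

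NFKBIB (IκBβ) is another inhibitor. It had 1 probe set at the floor and another at 9.24, 9.11 and 9.04 in IPEC-J2, against 9.23, 9.17 and 8.98 in IPEC-1. The mean of both differed by 0.00 with a 95% interval of -0.12 to 0.12, which does not reach the difference of NFKBIA; the difference between these genes was not tested. NFKB1, the p105 and p50 subunit, was at the floor on all arrays, and NFKBIL1 was above it on IPEC-1 array 3 alone (7.45). The other NF-κB subunits were not among the symbols analysed here.

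TRAF3IP2 (Act1), the adaptor that carries the signal of the interleukin-17 receptor, gave 9.23, 9.68 and 9.46 in IPEC-J2, against 8.13, 7.95 and 8.28 in IPEC-1. All IPEC-J2 arrays lay above all IPEC-1 arrays. The difference of 1.34 (SE 0.153) is 2.53-fold (limma, adjusted p = 0.00837), with 1.33 and 1.28 in the pairs with a shared note. IL17A, a ligand of that receptor, was at the floor on all arrays. TRAFD1, described in mice as a brake on Toll-like receptor signalling, gave 9.06, 9.01 and 8.86 in IPEC-J2, against 9.05, 9.59 and 9.29 in IPEC-1, with overlap (difference -0.33, 95% interval -0.76 to 0.09). TRAF5 differed by -0.01 (95% interval -0.51 to 0.48), and TRAF6, which links the interleukin-1 and Toll-like receptors to NF-κB, was above the floor on IPEC-1 array 2 alone (4.89).

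Genes of the same pathways with other symbols were taken from lists, which were written with earlier results of these data known. Of 23 genes of the NF-κB and Toll-like receptor pathway on the array, 22 were above the floor somewhere. In IPEC-J2, 4 of them were higher and 2 lower, a share of 27.3%, against 25.4% of all genes above the floor somewhere. FADD, the adaptor of death receptors, gave 8.64, 9.12 and 8.71 in IPEC-J2, against 6.61, 6.66 and 6.62 in IPEC-1, and was 4.57-fold higher (limma, adjusted p = 0.00194). With signals under 7.85 raised to it, the difference of FADD was 0.36 and did not pass (adjusted p = 0.0943). TANK and TBK1, a scaffold and its kinase on the route to interferon, were higher by 0.55 and 0.28, and TOLLIP, an inhibitor of Toll-like receptor signalling, was lower with a difference of -0.23. These 3 small differences lost their call on leaving out most single arrays: TANK and TBK1 on any but IPEC-J2 array 1 (adjusted p 0.0811 to 0.129 and 0.0576 to 0.126) and TOLLIP on any but IPEC-1 array 3 (0.0577 to 0.113). The call of TOLLIP was also lost after quantile normalization and with arrays centred on the 75th percentile. Of the genes in between, UBE2N, UBE2V1, TRADD, IRAK1 and MAP3K7 did not pass the test. PELI1, the remaining higher gene of this list, differed by 0.20 without overlap (limma, adjusted p = 0.0293). Of 4 cytosolic and inflammasome genes, none was called by limma (1 had an unadjusted p under 0.05, and the t-test of the methods called 0 after adjustment).

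Of 18 genes of cytokine receptor signalling, 14 were above the floor somewhere, and of these 0 were higher and 2 lower, a share of 14.3% against the 25.4% of all such genes. JAK1, the kinase used by the receptors of interleukin-6, interleukin-4, interleukin-10 and interferons, gave 7.63, 7.72 and 7.68 in IPEC-J2, against 9.09, 9.18 and 9.10 in IPEC-1. It was 2.72-fold lower in IPEC-J2 (difference -1.44; limma, adjusted p = 0.000132). JAK1 stayed called under all 22 alternatives of the processing, but its difference was as small as -0.34 among them. JAK3, which pairs with IL2RG in lymphocytes, gave 6.57, 7.28 and 7.33 in IPEC-J2, against 9.75, 9.54 and 9.96 in IPEC-1, a difference of -2.69. STAT3, which carries the interleukin-6 signal, differed by 0.10 (95% interval -0.15 to 0.35), and SOCS1 and SOCS3, its feedback inhibitors, were at the floor on all arrays.

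**Figure D5:**
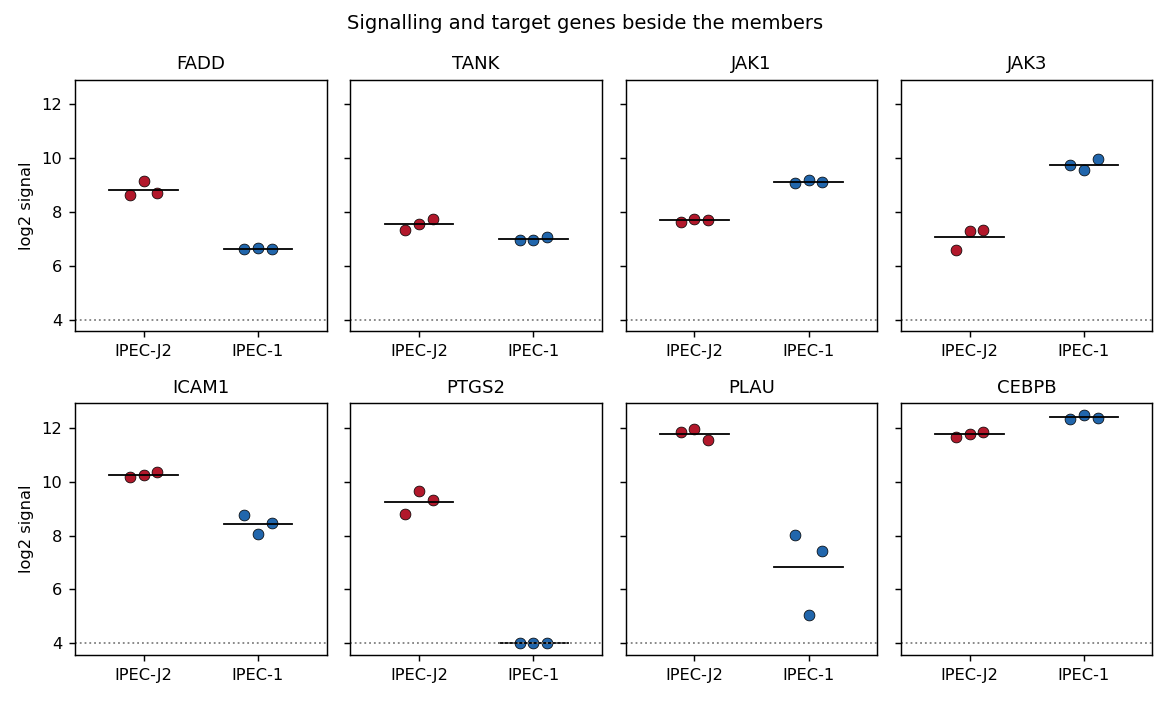
log2 signal on each array (points) and mean (bar) of 8 genes outside the symbol rule, IPEC-J2 in red left of IPEC-1 in blue; the dotted line is the floor of 4.00. FADD, TANK, ICAM1, PTGS2 and PLAU are higher in IPEC-J2, with PTGS2 at the floor throughout IPEC-1, and JAK1, JAK3 and CEBPB are lower.

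Among 22 known inflammatory target genes of epithelium, 19 were above the floor somewhere. Of these, 5 were higher and 3 lower in IPEC-J2, a share of 42.1% against the 25.4% of all such genes. The list was written with earlier results of these data known, so the share is not a result about the list. ICAM1, the adhesion molecule for leukocytes, gave 10.17, 10.25 and 10.36 in IPEC-J2, against 8.75, 8.04 and 8.46 in IPEC-1, and was 3.59-fold higher (limma, adjusted p = 0.00759). PTGS2, the inducible prostaglandin synthase, gave 8.78, 9.66 and 9.31 in IPEC-J2, with every IPEC-1 array at the floor. PTGS2 was called with IPEC-1 left at the floor (limma, adjusted p = 0.000676). It was at least 2.64-fold higher when IPEC-1 is set to 7.85, the 95th percentile of unsupported single signals. The p-value does not belong to this bound. PLAU (urokinase) gave 11.85, 11.93 and 11.54 in IPEC-J2, against 8.03, 5.05 and 7.43 in IPEC-1 (limma, adjusted p = 0.0245). The call of PLAU was lost without any single IPEC-J2 array or without IPEC-1 array 3 (adjusted p 0.0683 to 0.0862).

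The 3 lower genes of this list were C3, IER3 and CEBPB. C3, the central complement protein, gave 4.00, 4.00 and 6.15 in IPEC-J2, against 8.66, 9.38 and 8.72 in IPEC-1 (limma, adjusted p = 0.0223). CEBPB, a transcription factor of the acute phase response that acts on the IL6 promoter, differed by -0.63 and IER3, an early response gene, by -0.76. C3 lost its call on leaving out any single array but IPEC-J2 array 3 (adjusted p 0.0630 to 0.0748), and IER3 on any but IPEC-J2 array 1 (0.0832 to 0.115). IER3 was also not called after quantile normalization (0.0692) or with centred arrays (0.0587). The called genes of the list thus went in both directions.

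Of 21 cytokines and receptors with other names, 10 were above the floor somewhere. Of these, 4 were higher and 0 lower in IPEC-J2, a share of 40.0% against the 25.4% of all such genes. This list, too, was written with earlier results of these data known, so the share is not a result about it. At the floor throughout IPEC-1 were 3 of the 4. IFNGR1, the receptor chain for interferon gamma, gave 6.81, 7.56 and 7.42 in IPEC-J2, KITLG (stem cell factor) 5.90, 6.07 and 5.95, and S100A12 (calgranulin C) 5.73, 7.01 and 6.43, all against the floor on every IPEC-1 array. These signals lie under 7.85, so no fold is given, and with signals raised to that level the 3 genes were not called. The remaining called gene, AMCF-II, was above the floor on every array. Its mean signals were 6.50, 6.54 and 6.50 in IPEC-J2, against 6.04, 6.14 and 6.21 in IPEC-1, without overlap. The difference was 0.38 (limma, adjusted p = 0.0104). MIF, a cytokine made by most cells, gave 12.47, 12.71 and 12.56 in IPEC-J2, against 12.62, 12.45 and 12.60 in IPEC-1, a difference of 0.02 (95% interval -0.20 to 0.25).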

How the data were processed

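The deposited table of the series holds 1 log2 signal per probe set and array. For the step to these signals, the submitters' processing notes name GCOS 1.1.1 and PLIER, and in the methods the authors scaled the arrays globally, corrected the background, normalized and summarised the probe sets. The log base is not stated; the signals were read as log2 because the floor of 4 is the log2 of 16, an offset. The methods do not name the normalization used, and none was added. A signal at the floor may hide a transcript of any lower level, and precision is limited by the 6 arrays.

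Of 23999 probe sets without controls, 10069 had 1 symbol in the platform annotation, 198 several and 13732 none; 2 probe sets with several symbols that held a symbol of the rule were not used. All 87 symbols were found in the RefSeq gene table. Probe sets were averaged per symbol, 18 of the 87 genes having more than 1. The default lmFit and eBayes of limma 3.58.1 (R 4.3.3) compared the lines, with no block and Benjamini-Hochberg adjustment over 6765 genes. Genes at the floor on all arrays stayed in the fit. As they have no spread, the prior of the moderation has 0.416 degrees of freedom, against 1.50 without them. In simulated data of this design the fit recovered most of the larger changes, but a larger share of its calls was false than the threshold of 0.05 allows, so adjusted p-values near it are weaker than they read.

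Replicate numbers came from the titles. Each p-value reflects the spread among these cultures alone. IPEC-J2 array 3 and IPEC-1 array 1 carry the same note, a day and month of unstated meaning, in their label descriptions, as do IPEC-J2 array 1 and IPEC-1 array 2. The other 2 arrays have notes of their own and form the third pair in the fit with the notes as a block.

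Named are the called genes, TLR4, in each role the 2 other genes with the highest mean, and up to 3 called genes per list and direction; others are named after their values were seen. The rule for bounds had set a lower level, over all probe sets, and was replaced by the stricter 7.85. Members, roles and lists were chosen with earlier results of these data known. No sequence was used.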

Additional observations from a re-analysis of the deposited data

How the results depend on the processing

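The counts of called genes were recomputed under 22 alternatives and the named genes under 21 or 22, as a filter on low means leaves some genes out. Of these alternatives, 2 were added after the data were seen (signals raised to 7.85, and the block by label note without the genes at the floor). None of the 8 called genes changed its direction. In place of 5 higher and 3 lower genes, the count of higher genes was 8 with the t-test of the methods before adjustment, 1 with the replicate block, 3 without the pair of arrays of the second shared label note (TRAF3IP2 with IL12A and IL5) and 0 without the pair of the first, where the count of lower genes was 0 as well (10 genes had an unadjusted limma p under 0.05; of all genes, 149 were higher and 168 lower there, against 640 and 761 with all arrays). With the label note as a block with the third pair, 1 gene was lower. On leaving out 1 array at a time, 3 to 6 genes were higher and 2 to 3 lower. The replicate numbers did not pair the arrays (correlations of the deviations of -0.06, -0.11 and 0.06), nor did the notes and the remaining pair all exceed 0.1 (0.06, 0.17 and 0.09). The replicate block retained IL10RB and IL11RA of the 8 calls and added IL27RA. The block by note leaves 2 residual degrees of freedom in place of 4. Its loss of IL10RB, IL11RA and IL4R has a cause that was not tested; without the genes at the floor it retained 7 of the 8. IL10RB was also lost with these genes left out, with genes of a mean under 5 left out, and with the trend and robust options. IL1A was called under 7 of 22 alternatives and IL27RA under 4. Of the called genes named outside the symbol rule, 20 were followed here, without AMCF-II, PELI1 and the epithelial markers. Of these 20, 18 lost their call under at least 1 alternative, JAK1 and THY1 under none. Counting genes within 0.5 of the floor changed no floor count by over 1.5 times. Depth on these arrays is the signal over the floor, which limits all statements on genes under about 7.85.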
